A study of Mus musculus with 24 samples.

Results

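The transcripts of 10 genes that keep repeated elements and methylated promoters silent were followed in mouse ovarian cancer cells. They are Dnmt1, Uhrf1, Dnmt3a, Dnmt3b, Setdb1, Trim28, Mphosph8, Morc3, Atrx and Daxx, taken by gene symbol from a table of 25229 symbols. Each of the 10 was among the 12941 genes with enough reads to be tested. The cells were ID8 P53 KO, the mouse line ID8 carrying a Trp53 knockout, and all groups shared that genotype and a culture of 6 days. They received the vehicle DMSO, AU15330 (AU-15330, a PROTAC that directs SMARCA4 and SMARCA2, the ATPases of SWI/SNF, to degradation) at 2.5 µM, cisplatin at 750 nM, or both drugs at these concentrations, with 6 replicates in each of the 4 groups. These are concentrations from the sample labels, and the methods of the study give another one for cisplatin in these cells. Everything below comes from 1 cell line in culture, and the sources used here do not say whether the replicates were separate cultures, so p-values measure the spread between these samples, which may be technical.

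Methylation of cytosines at CpG sites is copied to the new DNA strand by DNMT1, which UHRF1 brings to hemimethylated sites, while DNMT3A and DNMT3B set new methylation. At endogenous retroviruses, TRIM28 is brought in by zinc finger proteins and recruits SETDB1, which writes the histone mark H3K9me3, and the HUSH complex, to which MPHOSPH8 belongs, reads that mark. ATRX and DAXX load the histone variant H3.3 on the same elements, MORC3 acts with DAXX, and loss of this silencing is known to let double-stranded RNA form and start an interferon response, a set of antiviral genes whose drivers include IRF7.

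Between 17592588 and 25260009 reads per library (median 21863798.5) were counted on genes, and 3 counts, taken as the floor for a value of 0, corresponded to 0.12 to 0.186 CPM (counts scaled to the TMM-adjusted library total) by counting error alone. Replicate 1 stood apart: its mean over 16 S phase genes was the highest of its group in each of the 4 groups, for example 6.32 against 5.62 to 5.88 log2 CPM in the other AU-15330 libraries. Replicates 1 to 3 and 4 to 6 also differed. Their means over 30 interferon genes were 1.41 to 1.66 and 1.74 to 2.07 in DMSO, and 6.42 to 6.59 and 6.91 to 6.96 with cisplatin. With AU-15330 the order was reversed (4.77 to 4.93 and 4.62 to 4.68), and with both drugs the ranges overlapped (4.95 to 5.09 and 4.89 to 5.23). The part of this split in the results was not tested. Of the 8 markers of ovarian surface epithelium and mesothelium, all were found in DMSO, where their summed level was 3531 to 5346 CPM. This sum was 4263 to 4948 CPM with cisplatin, 1019 to 1151 CPM with AU-15330 and 1224 to 1406 CPM with both drugs. Krt19 made up much of this sum in DMSO (1398 to 2518 CPM). Called higher with cisplatin were 6 of the 8 markers (against 26.0% of all tested genes), while all 8 were lower with AU-15330 (against 37.2%). Krt7, one of these markers, was at 0 to 2 counts per library with AU-15330. Of the 4 leukocyte markers, Ptprc, Cd3e and Lyz2 had at most 5 counts in any library and Cd68 was detected, with a summed level of 6.46 to 18.97 CPM in DMSO, 16.7 to 52.9 CPM with AU-15330, 6.90 to 13.2 CPM with cisplatin and 23.9 to 42.3 CPM with both. Of the endothelial markers, Cdh5 had at most 3 counts and Pecam1 was detected. Their summed level was 2.87 to 4.23 CPM in DMSO, 0.261 to 0.715 CPM with AU-15330, 8.24 to 12.5 CPM with cisplatin and 0.439 to 1.05 CPM with both drugs. The part of these shifts in the results below was not tested, and in these bulk libraries fewer cells of a kind and less RNA per cell cannot be told apart.

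Adjusted for length, the 10 genes spanned a wide range in DMSO (CPM per kilobase of the union of annotated exons, mean ± SD, n = 6). Trim28 was at 88.8 ± 9.28, above Daxx at 25.0 ± 1.93 and Mphosph8 at 18.3 ± 2.03, and the libraries of these 3 genes did not overlap. Atrx (12.3 ± 2.32), Dnmt1 (11.3 ± 1.15), Setdb1 (10.8 ± 1.11) and Morc3 (9.33 ± 1.78) had overlapping libraries, and those of Dnmt3a (6.54 ± 1.01) overlapped with Morc3. Uhrf1 (2.64 ± 0.578) and Dnmt3b (0.787 ± 0.116) were the lowest. Exons used by few transcripts lengthen the union, so these levels are lower limits for genes with long alternative exons.

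On the mouse build GRCm38 (mm10) the genes lie at chr9:20907209-20959888 (Dnmt1, minus strand), chr17:56303321-56323486 (Uhrf1, plus), chr12:3806007-3914443 (Dnmt3a, plus), chr2:153649450-153687730 (Dnmt3b, plus), chr3:95323525-95357202 (Setdb1, minus), chr7:12999114-13031035 (Trim28, plus), chr14:56668248-56697430 (Mphosph8, plus), chr16:93832121-93876073 (Morc3, plus), chrX:105797615-105929403 (Atrx, minus) and chr17:33909414-33915590 (Daxx, plus). Exons of Setdb1 overlap those of Cers2 on the opposite strand, which had up to 6053 counts in a library. Since the use of strand in counting is not given in the sources used here, reads of the 2 genes may have been mixed, and the same holds for Mphosph8 and Gm16973 (up to 191 counts).

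The 3 genes with the largest increases are shown here by their promoters, because 2 of them rose with DNA replication genes and 1 with interferon genes. The sequences are RefSeq windows of 300 bases on GRCm38.p6 from 250 bases before to 50 after a transcript start, written 5′ to 3′ on the gene's strand, and for genes with several starts the window with the most CpG is given. Capitals mark TTTNNCGC, the core of the sites bound by E2F factors, on either strand. In Daxx, GAAANNGAA, the core of the interferon response element, was searched instead, and it has no capitals because these letters are not in this window.
Dnmt1 (chr9:20952574-20952873, minus strand): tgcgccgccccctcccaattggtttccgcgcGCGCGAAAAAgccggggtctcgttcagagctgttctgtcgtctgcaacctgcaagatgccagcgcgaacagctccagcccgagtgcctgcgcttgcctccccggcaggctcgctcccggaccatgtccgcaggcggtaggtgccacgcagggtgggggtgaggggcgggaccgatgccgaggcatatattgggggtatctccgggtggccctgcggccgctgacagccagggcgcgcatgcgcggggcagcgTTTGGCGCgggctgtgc
Uhrf1 (chr17:56304063-56304362, plus strand): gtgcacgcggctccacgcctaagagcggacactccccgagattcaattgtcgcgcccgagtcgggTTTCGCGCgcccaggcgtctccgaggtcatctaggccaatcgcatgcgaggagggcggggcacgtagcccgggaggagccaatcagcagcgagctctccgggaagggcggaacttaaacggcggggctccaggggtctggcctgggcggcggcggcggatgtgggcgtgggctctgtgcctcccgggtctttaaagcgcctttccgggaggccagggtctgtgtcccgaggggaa
Daxx (chr17:33909195-33909494, plus strand): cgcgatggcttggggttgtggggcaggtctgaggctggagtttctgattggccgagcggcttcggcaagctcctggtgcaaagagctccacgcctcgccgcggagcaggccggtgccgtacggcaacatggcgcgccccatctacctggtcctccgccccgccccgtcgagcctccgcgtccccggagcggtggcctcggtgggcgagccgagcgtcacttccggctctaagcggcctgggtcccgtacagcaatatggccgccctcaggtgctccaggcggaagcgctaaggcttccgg

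Each of the 3 windows held 33 CpG, and the windows of the other 7 genes held 11 to 47. Taken by the same rule, 1 window for each of 26994 genes, the median was 8 CpG. The E2F letters matched at 3 places in Dnmt1, where 2 matches on the opposite strand overlap each other, and at 1 place in Uhrf1. They matched in none of the windows of the other 8 genes, in 5.16% of all 32817 windows, and in 9.13% of the 3495 genes whose window held at least 30 CpG. The interferon letters were in none of the 10 windows and in 8.55% of all windows. For these letters no share among windows of similar CpG was taken. Daxx has 3 windows, of which 1 was searched, so a lack of the element is not read from this. CCAAT, a common promoter element, was in 7 of the 10 and in 37.4% of all windows. A match is a description of letters, and both motifs were chosen with the expression values known.

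The maintenance pair rose with each drug and was highest with both. Uhrf1 was at 8.29 CPM in the lowest, 11.01 in the median and 14.7 CPM in the highest DMSO library, at 49.6, 63.9 and 75.3 CPM with AU-15330, at 56.2, 74.3 and 93.0 CPM with cisplatin, and at 160.0, 173 and 190.2 CPM with both drugs. No DMSO library reached any treated one, and no library with 1 drug reached the lowest with both. The log2 fold change of Uhrf1 was 2.51 ± 0.130 (SE) with AU-15330 (edgeR quasi-likelihood, adjusted p = 2.34e-15), 2.72 ± 0.130 with cisplatin (adjusted p = 4.04e-15) and 3.95 ± 0.136 with both (adjusted p = 9.04e-19), which is 15.4-fold. AU-15330 on top of cisplatin raised it by 1.22 ± 0.119 (adjusted p = 1.11e-09), and on the log2 scale the effect of AU-15330 was smaller with cisplatin than without by 1.29 (interaction -1.29 ± 0.172, adjusted p = 2.69e-06). In CPM the step was larger with cisplatin, where the mean went from 74.12 to 172.8, than without, where it went from 11.24 to 63.97.

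Dnmt1 was at 77.1, 80.55 and 100.01 CPM (lowest, median, highest) in DMSO, at 129.5, 133.5 and 162 CPM with AU-15330, at 170.5, 206 and 226 CPM with cisplatin, and at 213, 236 and 264 CPM with both. The 3 treated groups lay wholly above DMSO, and the cisplatin and combination libraries overlapped, with 5 of the 6 combination libraries above every cisplatin one. Its log2 fold changes were 0.74 ± 0.0781 with AU-15330 (adjusted p = 3.59e-09), 1.26 ± 0.0787 with cisplatin (adjusted p = 8.41e-13), 1.5 ± 0.0792 with both (adjusted p = 4.53e-15) and 0.23 ± 0.0772 for both against cisplatin alone (adjusted p = 0.00991). The interaction was -0.51 ± 0.110 (adjusted p = 0.000809). Dnmt1 therefore changed less than Uhrf1 in each of these comparisons, on the log2 scale of each gene's own level.

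**Figure D1:**
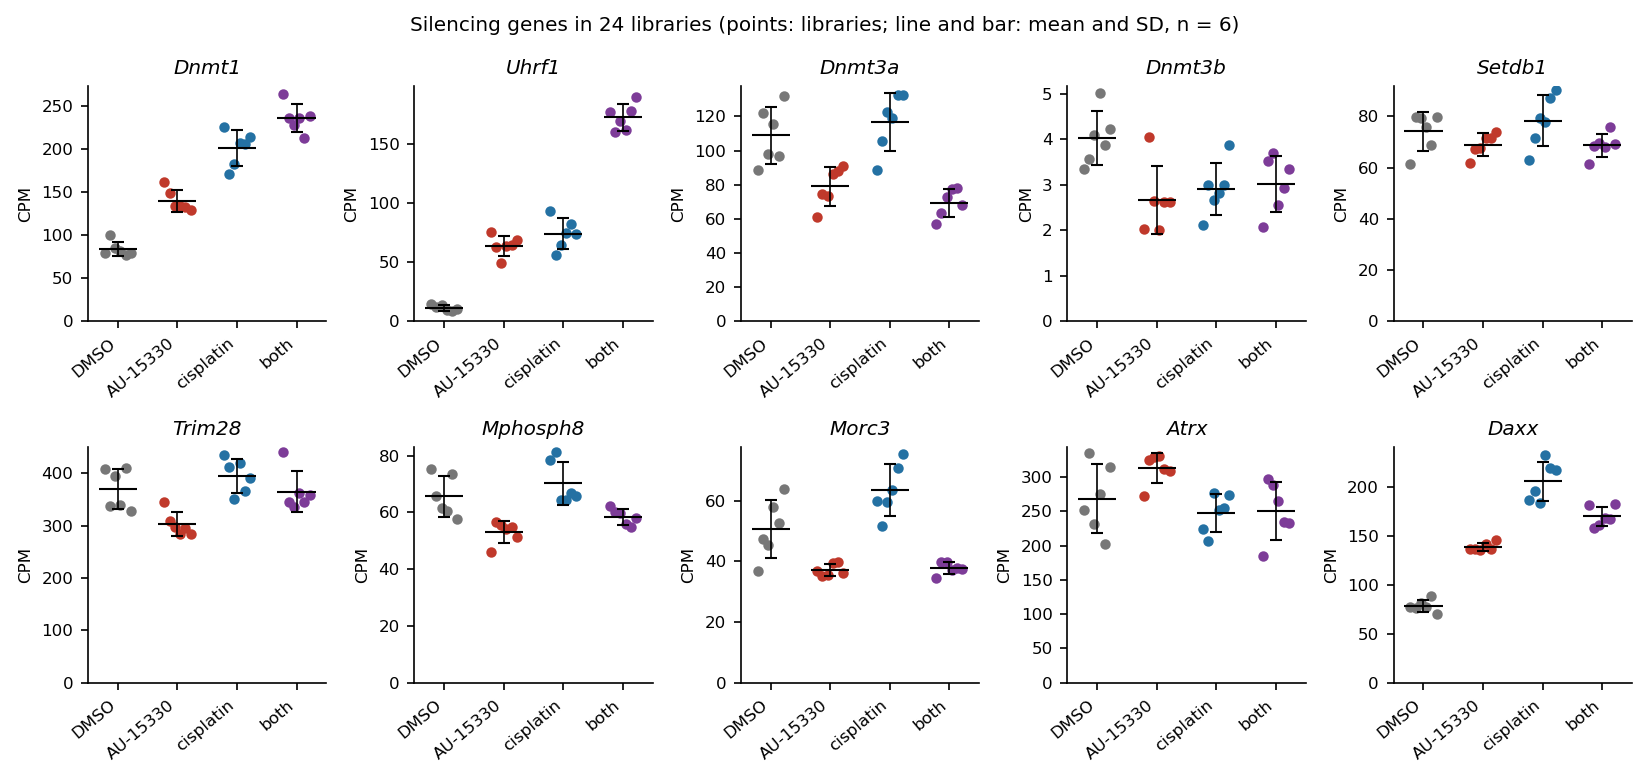
CPM of the 10 genes in the 24 libraries by treatment, with a linear axis from 0 for each gene (points, libraries; line and bar, mean and SD, n = 6). Uhrf1 rose from 8.29 to 14.7 CPM in DMSO to 160.0 to 190.2 CPM with both drugs, whereas Setdb1 and Atrx libraries of all 4 groups overlapped.

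Genes of DNA replication and division rose in the same libraries. Of the 16 S phase genes, 14 were called higher and 1 lower with AU-15330 (median log2 fold change 1.18), 16 were higher with cisplatin (median 1.83), and 11 were higher and 1 lower for both drugs against cisplatin (median 0.77), where the median over all tested genes was 0.00, 0.00 and 0.04. Of all tested genes 36.2%, 26.0% and 35.4% were called higher in these 3 comparisons. The largest increases with AU-15330 were those of Gins2 (1.97), Mcm5 (1.92) and Cdc6 (1.62), which load or start the replication fork, and with cisplatin those of Mcm5 (2.73), Cdc6 (2.68) and Mcm3 (2.39). Rrm1, a subunit of ribonucleotide reductase, fell by 0.78 on the log2 scale with AU-15330 and by 0.86 when AU-15330 was added to cisplatin. The largest increases on adding AU-15330 to cisplatin were those of Mcm5 (1.24), Pola1 (0.99) and Gins2 (0.92).

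All 10 mitosis genes were higher with AU-15330 (median 1.00) and with cisplatin (median 2.74), and 3 of the 10 were higher with both drugs than with cisplatin (median 0.32), a share near the 35.4% of all genes. The largest increases were those of Cenpf, a kinetochore protein (1.41), Bub1 (1.40) and Cdk1 (1.09) with AU-15330, and of Cenpf and Ccnb1 (2.94 each) and Ccna2 (2.85) with cisplatin. The 3 genes were Cdk1 (0.53), Bub1 (0.50) and Top2a (0.38).

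Against DMSO with each drug, Uhrf1 moved further than the mean of the S phase genes and Dnmt1 less far than it, although single S phase genes differed. Mcm5 matched Uhrf1 with cisplatin (2.73 against 2.72), and Mcm6 moved less than Dnmt1 (0.25 with AU-15330 and 0.90 with cisplatin). The log2 level of Uhrf1 minus the mean of the 16 S phase genes in the same library was -1.31 ± 0.263 (SD, n = 6) in DMSO, 0.19 ± 0.238 with AU-15330, -0.35 ± 0.150 with cisplatin and 0.35 ± 0.141 with both. It was higher than in DMSO by 1.5 with AU-15330 and by 0.96 with cisplatin, and higher by 0.71 with both drugs than with cisplatin (exact permutation test, two-sided, p = 0.00216 each, the smallest that 6 against 6 libraries allow, adjusted p = 0.00433 over 8 such tests). With both drugs it differed from AU-15330 alone by 0.17 (exact permutation p = 0.16). The same difference for Dnmt1 was 1.60 ± 0.270 in DMSO, 1.32 ± 0.149 with AU-15330, 1.10 ± 0.147 with cisplatin and 0.80 ± 0.0747 with both. It fell by 0.27 with AU-15330 (exact permutation test, adjusted p = 0.0495), by 0.50 with cisplatin (exact permutation test, adjusted p = 0.00866), and by 0.29 when AU-15330 was added to cisplatin (exact permutation test, adjusted p = 0.00693). With both drugs it was lower than with AU-15330 alone, and the difference was -0.52 (exact permutation test, adjusted p = 0.00433). This comparison was chosen after the values were seen and took no account of replicate numbers, so its p-values are descriptions.

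**Figure D2:**
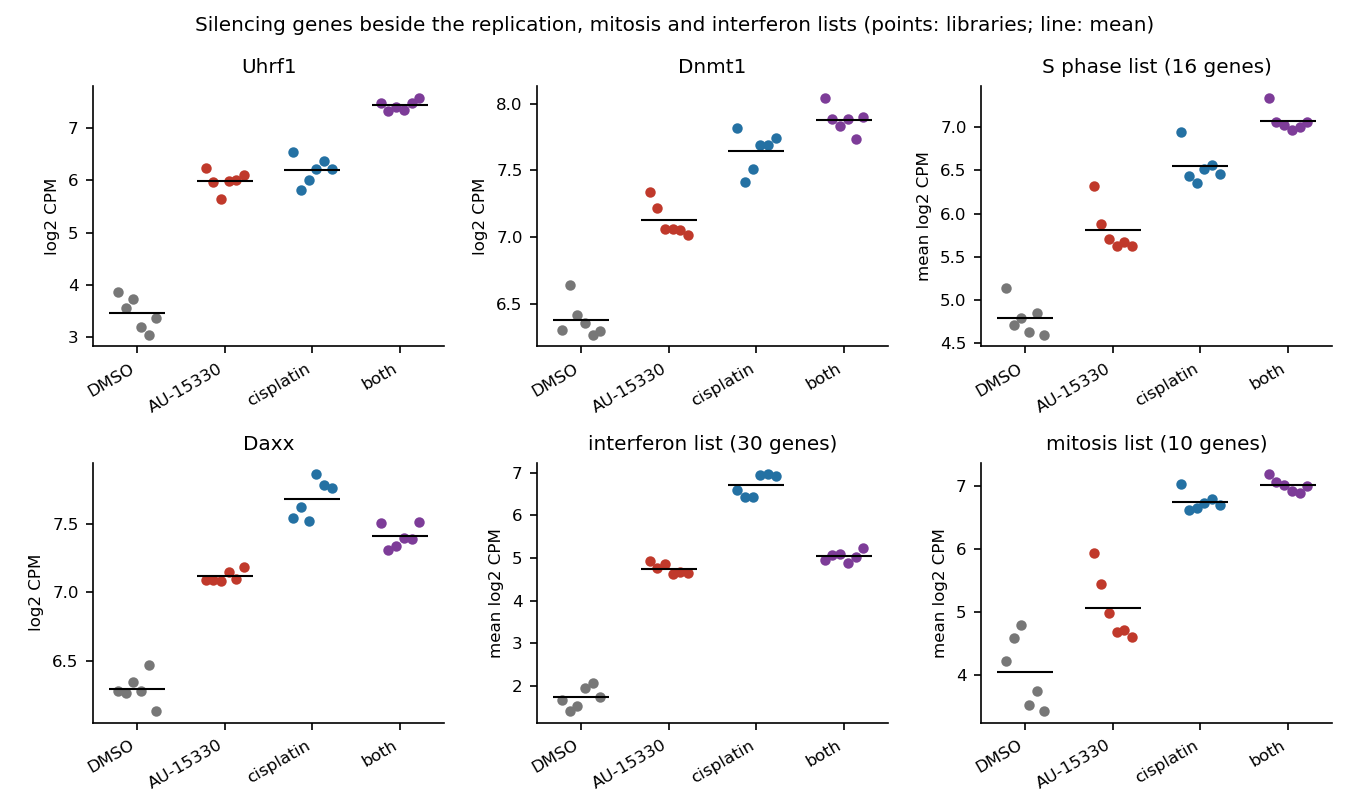
Levels in the 24 libraries on a log2 CPM scale that does not start at 0, for Uhrf1, Dnmt1 and Daxx and for the mean of the S phase, mitosis and interferon lists (points, libraries; line, mean). Uhrf1, Dnmt1 and the S phase mean were highest with both drugs, while Daxx and the interferon mean were highest with cisplatin alone.

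Both de novo enzymes were lower with AU-15330 than in DMSO, and Dnmt3a was also lower when AU-15330 was added to cisplatin. Dnmt3a was at 88.8, 107 and 132 CPM (lowest, median, highest) in DMSO, at 60.9, 80.5 and 91.0 CPM with AU-15330, at 88.8, 121 and 133 CPM with cisplatin, and at 57.0, 70.3 and 78.1 CPM with both drugs. The combination lay wholly below DMSO and below cisplatin, and 5 of 6 AU-15330 libraries lay below every DMSO library. The log2 fold change was -0.46 ± 0.114 with AU-15330 (adjusted p = 0.000746), -0.65 ± 0.114 with both (adjusted p = 1.42e-05) and -0.75 ± 0.114 for both against cisplatin (adjusted p = 2.02e-06), and with cisplatin alone it was 0.10 (95% interval -0.13 to 0.33, adjusted p = 0.468).

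Dnmt3b was barely expressed, with 42 to 112 counts per library. It was at 3.34, 3.99 and 5.02 CPM in DMSO, at 2.00, 2.62 and 4.05 CPM with AU-15330, at 2.10, 2.90 and 3.87 CPM with cisplatin, and at 2.08, 3.13 and 3.69 CPM with both, so the 4 groups overlapped. The log2 fold change was -0.60 ± 0.177 with AU-15330 (adjusted p = 0.00389), -0.47 ± 0.175 with cisplatin (adjusted p = 0.0276) and -0.42 ± 0.175 with both (adjusted p = 0.0345). For both drugs against cisplatin it was 0.05 (95% interval -0.32 to 0.41, adjusted p = 0.82). Scaled to total counts without TMM, the calls with cisplatin and with both drugs against DMSO were lost (adjusted p = 0.0652 and 0.155). The interaction of 0.65 ± 0.250 (adjusted p = 0.0477) was lost under 4 of the alternatives.

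The TRIM28 and SETDB1 arm changed little. Trim28 was at 328, 366 and 411 CPM in DMSO, at 283, 296 and 344 CPM with AU-15330, at 351, 401 and 435 CPM with cisplatin, and at 335, 352 and 441 CPM with both. It was lower with AU-15330 (log2 fold change -0.29 ± 0.0786, adjusted p = 0.00189), where 5 of 6 libraries lay below every DMSO one, and higher with both drugs than with AU-15330 alone (0.27 ± 0.0786, adjusted p = 0.00734). The first of these calls was lost on total counts without TMM (-0.16, adjusted p = 0.0788). With cisplatin its log2 fold change was 0.10 (95% interval -0.06 to 0.26, adjusted p = 0.303).

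Setdb1 was at 61.4, 77.7 and 80.0 CPM in DMSO, at 61.6, 69.7 and 74.0 CPM with AU-15330, at 63.1, 78.8 and 90.5 CPM with cisplatin, and at 61.5, 68.8 and 75.8 CPM with both, and all groups overlapped. Against DMSO its log2 fold change was -0.11 with AU-15330 (95% interval -0.27 to 0.06), 0.08 with cisplatin (-0.09 to 0.24) and -0.11 with both (-0.28 to 0.05), and none passed the test (adjusted p = 0.235, 0.437 and 0.212). Without replicate 1 it was called lower with AU-15330 (-0.14, adjusted p = 0.0411) and with both drugs (-0.18, adjusted p = 0.0096). The intervals leave out a change of 1.5-fold in either direction. Of the 6 comparisons, Setdb1 was called in 1, the combination against cisplatin (-0.19 ± 0.0802, adjusted p = 0.0394), and not there on total counts without TMM (-0.12, adjusted p = 0.169).

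Of the HUSH and MORC members, Mphosph8 and Morc3 were lower with AU-15330. Mphosph8 was at 57.5, 63.6 and 75.3 CPM in DMSO, at 46.0, 54.5 and 56.7 CPM with AU-15330, at 64.5, 66.3 and 81.1 CPM with cisplatin, and at 54.8, 59.0 and 62.3 CPM with both. AU-15330 libraries lay wholly below DMSO (-0.31 ± 0.0761, adjusted p = 0.000853), and the combination wholly below cisplatin (-0.26 ± 0.0758, adjusted p = 0.00343). Both drugs against DMSO gave -0.16 (adjusted p = 0.0536), which was called under 5 of the alternatives, at -0.16 to -0.22.

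Morc3, an ATPase of the MORC family that is also known to restrain interferon genes, was at 36.7, 49.98 and 63.9 CPM in DMSO, at 35.3, 36.4 and 39.7 CPM with AU-15330, at 51.8, 61.7 and 75.5 CPM with cisplatin, and at 34.6, 37.7 and 39.8 CPM with both. It fell by 0.45 on the log2 scale with AU-15330 (SE 0.1, adjusted p = 0.000276), rose by 0.33 with cisplatin (SE 0.0992, adjusted p = 0.00776) and fell by 0.75 when AU-15330 was added to cisplatin (SE 0.0999, adjusted p = 2.64e-07). The libraries of the last comparison did not overlap. The interaction was -0.30 (adjusted p = 0.0993), and it was called with a replicate block (-0.31, adjusted p = 0.0458). The SD of Morc3 was 9.65 CPM in DMSO and 8.52 CPM with cisplatin, against 1.97 and 1.90 CPM in the groups with AU-15330.

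The H3.3 pair separated. Atrx was at 203, 263.5 and 336 CPM in DMSO, at 273, 318 and 331 CPM with AU-15330, at 206.5, 254 and 276 CPM with cisplatin, and at 184, 250.4 and 297 CPM with both, and all groups overlapped. Against DMSO none of its changes passed the test (log2 fold changes 0.22, -0.11 and -0.10 with AU-15330, cisplatin and both, adjusted p = 0.0835, 0.418 and 0.43). With AU-15330 it was called on total counts without TMM (0.35, adjusted p = 0.00543) and with a replicate block (0.23, adjusted p = 0.0498). It was lower with both drugs than with AU-15330 (-0.32 ± 0.114, adjusted p = 0.0254), where 4 of 6 libraries lay below every AU-15330 one.

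Daxx was at 70.1, 77.7 and 88.6 CPM in DMSO, at 136, 136.5 and 146 CPM with AU-15330, at 184, 207 and 232 CPM with cisplatin, and at 159, 168 and 182 CPM with both. None of the 4 groups overlapped with another. The order was DMSO, AU-15330, both drugs, cisplatin. Its log2 fold change was 0.82 ± 0.0649 with AU-15330 (adjusted p = 1.52e-11), 1.39 ± 0.0655 with cisplatin (adjusted p = 2.81e-15) and 1.11 ± 0.0651 with both (adjusted p = 3.48e-14). Adding AU-15330 to cisplatin lowered it by 0.28 (SE 0.0640, adjusted p = 0.000436), and the interaction was -1.10 ± 0.0911 (adjusted p = 8.86e-10).

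The interferon list had its largest mean in the same group as Daxx. The mean of its 30 genes was 1.41 to 2.07 log2 CPM in DMSO, 4.62 to 4.93 with AU-15330, 6.42 to 6.96 with cisplatin and 4.89 to 5.23 with both drugs, and only the ranges of AU-15330 and both drugs overlapped. With AU-15330, 26 genes were higher and 2 lower (median 3.28). With cisplatin, all 30 were higher (median 4.97), and adding AU-15330 to cisplatin left 6 higher and 20 lower (median -0.75). Of all tested genes 36.2% were higher and 37.2% lower with AU-15330, 26.0% were higher with cisplatin, and 35.4% were higher and 32.7% lower for both drugs against cisplatin. The interaction was below 0 and passed the test in all 30 (median -4.81), against 15.8% of all genes. The list holds Ifit1, Ifit2, Ifit3, Ifit3b, Oas1a, Oas2, Oas3, Mx2, Rsad2, Usp18, Zbp1 and Cmpk2, which had few counts in DMSO. Summed over 6 libraries, these went from 4 (Zbp1) to 168 (Rsad2). For genes kept through groups where they are high, a rise from DMSO was largely set in advance. The counts, medians, means and interaction calls of the list are therefore descriptions.

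Single interferon genes did not share 1 pattern. Irf7, which amplifies the response, was at 7.59 to 11.1 CPM in DMSO, 154 to 182 CPM with AU-15330, 182 to 262 CPM with cisplatin and 112 to 148 CPM with both. Isg15, a ubiquitin-like protein, was at 1.59 to 3.77, 295 to 422, 110.3 to 196 and 231 to 286.5 CPM in the same order. Isg15 was thus highest with AU-15330 alone, without overlap with the other groups, and the highest Irf7 libraries were those with cisplatin. With AU-15330 the log2 fold change of Isg15 was 7.16. Usp18 went from 3 to 22 counts per library in DMSO to 856 to 1481 with AU-15330, and Oas1a from 0 to 6 to 361 to 473. Oas2 had 0 to 14 counts per library in DMSO, 2863 to 7559 with cisplatin and 24 to 50 with both drugs. Oas3 had 3 to 11, 1631 to 3860 and 16 to 29 counts in the same groups. Zbp1, a sensor of nucleic acids in an unusual helical form, had 0 to 2 counts per library in DMSO and 173 to 369 with cisplatin. Usp18, Oas1a, Oas2, Oas3 and Zbp1 passed the filter on low counts through the groups where they are high, so their values are given as counts with no fold change. The genes called lower with AU-15330 were Mx1, at 1.84 to 6.06 CPM in DMSO and at most 4 counts per library with AU-15330, and Ifi44 (log2 fold change -0.99). On adding AU-15330 to cisplatin, Mx1 went from 325 to 541 counts per library to 1 to 5, and Isg15 (0.69) and Xaf1 (0.50) were among the genes that rose. Reads of the Oas and Ifit families may be split between near-identical copies. The 7 interferon ligand genes had at most 6 counts in any library and were not tested.

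Counted as a list, 8 of the 10 silencing genes were called with AU-15330, where 73.4% of all tested genes were called. Of these 3 were higher (36.2% of all genes) and 5 lower (37.2%). With cisplatin 5 were called against 51.7% of all genes, 4 higher (background 26.0%) and 1 lower (25.7%). With both drugs 6 were called against 73.3%, 3 higher (36.8%) and 3 lower (36.5%). The combination differed from cisplatin in 7 genes (background 68.1%), 2 higher (35.4%) and 5 lower (32.7%). It differed from AU-15330 alone in 5 (background 41.7%), 4 higher (22.2%) and 1 lower (19.5%). The interaction passed in 4 (background 33.7%), 1 higher (17.9%) and 3 lower (15.8%). With 10 genes, no share in either direction was read as different from the background. Where a change above 1.5-fold was required, 3 genes were called with each drug and with both (Uhrf1, Dnmt1 and Daxx, all higher), against 36.0% of all genes with AU-15330, 13.8% with cisplatin and 36.2% with both. At that size Uhrf1 alone was called for both drugs against cisplatin (background 29.4%) and against AU-15330 (background 6.51%), and 2 genes, Uhrf1 and Daxx, for the interaction (background 7.16%). The comparisons share the DMSO, cisplatin or AU-15330 libraries, so their values are not independent of each other.

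**Figure D3:**
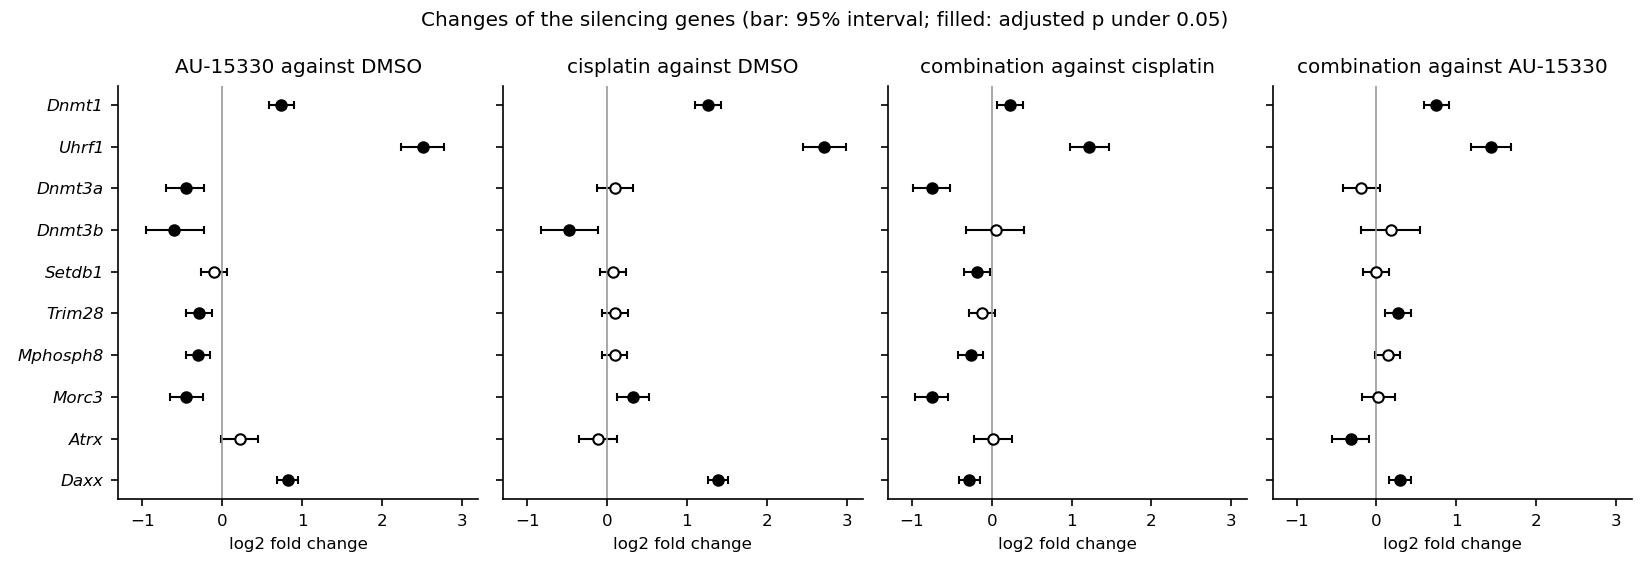
Log2 fold changes of the 10 genes in 4 comparisons (bars, 95% intervals; filled points, adjusted p under 0.05). Uhrf1, Dnmt1 and Daxx lie to the right with each drug, and Dnmt3a, Dnmt3b, Trim28, Mphosph8 and Morc3 lie to the left with AU-15330, at -0.60 to -0.29.

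Partner genes of the DNA methylation machinery were called in both directions, as were those of the 3 lists that follow it, except H3K9 partners with cisplatin. These counts stand beside 36.2% of all tested genes called higher and 37.2% lower with AU-15330, 26.0% and 25.7% with cisplatin, and 35.4% and 32.7% for both drugs against cisplatin, and no list was read as different from these shares. Of 17 tested, 3 were higher and 6 lower with AU-15330 (median -0.08), 6 higher and 4 lower with cisplatin (median 0.13), and 4 higher and 7 lower for both drugs against cisplatin (median -0.13). Zfp57, a zinc finger protein that keeps methylation at imprinted genes, fell most with AU-15330 (-2.55). It was at 56.3 to 105 CPM in DMSO, 9.58 to 19.6 CPM with AU-15330, 58.9 to 108 CPM with cisplatin and 22.95 to 27.3 CPM with both drugs. The groups with AU-15330 lay wholly below the others. Tet3, which oxidises methylcytosine, fell by 1.15 and Uhrf2 by 0.49, while Cdca7l (0.58), Hells (0.49) and the glycosylase gene Mbd4 (0.47) rose. With cisplatin, Hells (1.72) and Cdca7 (0.99), partners in a remodelling complex needed for methylation, rose most, followed by Mbd4 (0.76), and Zbtb4 (-0.54), Mbd3 (-0.29) and Dmap1 (-0.19) fell. On adding AU-15330 to cisplatin, Zfp57 (-1.73), Tet3 (-1.57), Tet2 and Uhrf2 (-0.56 each) fell most and Cdca7l (0.83), Mbd3 (0.48) and Mbd4 (0.36) rose most. The partners not tested, Dnmt3l, Tet1 and Tdg, had at most 13 counts.

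Among 17 tested partners of H3K9 methylation, 8 were higher and 6 lower with AU-15330 (median 0.11), 6 higher and 0 lower with cisplatin (median 0.06), and 8 higher and 5 lower for both drugs against cisplatin (median 0.15). The largest increases were those of Chaf1a and Chaf1b, subunits of the replication-coupled histone chaperone CAF-1, with AU-15330 (1.00 and 0.93) and with cisplatin (2.21 and 1.64). Cbx5 (0.66) followed with AU-15330 and Suv39h2 (1.51), which writes H3K9me3, with cisplatin. Ehmt1, a methyltransferase for H3K9 in active chromatin (-0.58), and the HP1 genes Cbx3 (-0.51) and Cbx1 (-0.42) fell most with AU-15330. On adding AU-15330 to cisplatin, Chaf1b (0.65), Suv39h2 (0.54) and Chaf1a (0.40) rose most, and Resf1, a cofactor of SETDB1 (-0.58), Ehmt1 (-0.52) and Cbx1 (-0.37) fell most.

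Of 5 tested HUSH and MORC partners, 3 were higher and 1 lower with AU-15330 (median 0.64), 2 higher and 1 lower with cisplatin (median 0.15), and 2 higher and 1 lower for both drugs against cisplatin (median 0.09). Morc4 rose by 1.38 with AU-15330, from 16.3 to 37.0 CPM in DMSO to 64.0 to 89.1 CPM, fell by 0.48 with cisplatin and rose by 2.13 when AU-15330 was added to cisplatin. Its paralog Morc3 went the other way in each of these comparisons. Tasor (0.64) and Tasor2 (0.82), which encode scaffold proteins of HUSH and its relative, rose with AU-15330, and Morc2a fell by 0.32. Tasor2 (0.42) and the HUSH subunit gene Pphln1 (0.18) rose with cisplatin. On adding AU-15330 to cisplatin Tasor2 rose (0.50) and Morc2a fell by 0.23.

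Of the 8 genes of H3.3 and its chaperones, 2 were higher and 4 lower with AU-15330 (median -0.32), 2 higher and 2 lower with cisplatin (median -0.07), and 2 higher and 4 lower for both drugs against cisplatin (median -0.29). H3f3b, a gene for H3.3, was at 918 to 1382 CPM in DMSO, 381.5 to 482 CPM with AU-15330, 726 to 888 CPM with cisplatin and 386 to 454 CPM with both. Its log2 fold change was -1.37 with AU-15330, -0.42 with cisplatin and -0.97 for both drugs against cisplatin. H3f3a, another H3.3 gene of the list, was lower in level, at 138 to 254, 118 to 179, 127 to 182 and 110 to 147 CPM in the same order. All groups of H3f3a overlapped. Hira, the other main H3.3 chaperone, fell by 0.74 with AU-15330 and by 0.59 for both drugs against cisplatin, and Asf1a fell by 0.56 with AU-15330. Ubn2 fell by 0.30 with cisplatin and by 0.37 for both drugs against cisplatin. Asf1b, the replication-linked copy of Asf1, rose by 1.22 with AU-15330, by 1.97 with cisplatin and by 0.84 for both drugs against cisplatin, and Ubn1 rose by 0.52, 0.20 and 0.40.

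**Figure D4:**
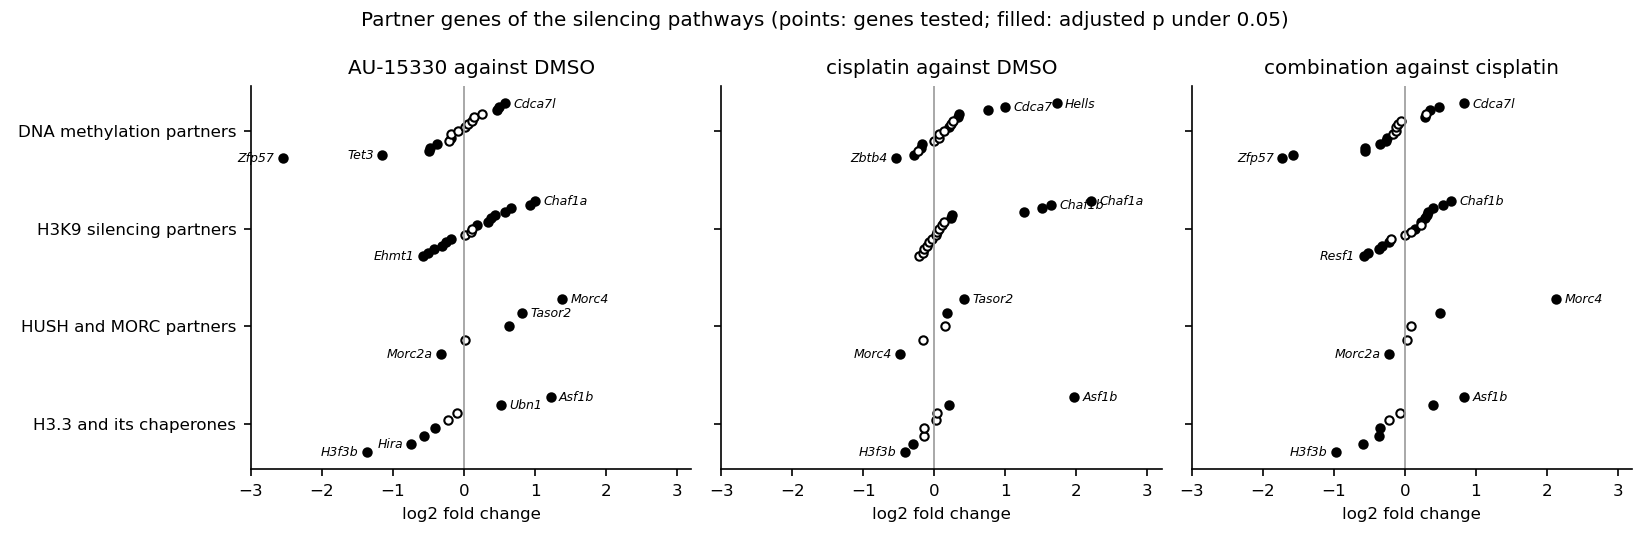
Log2 fold changes of the tested partner genes in 4 lists (points, genes in order of change within a list; filled, adjusted p under 0.05; names at the ends of each list). Zfp57 lies furthest left with AU-15330 (-2.55), and Chaf1a and Asf1b lie at the right with cisplatin (2.21 and 1.97).

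Most germline genes that promoter methylation keeps silent in body cells had few counts. Of 15, 11 were not tested and had at most 24 counts in a library. Of the other 4, Brdt, a testis bromodomain gene, was at 1 to 5 counts per library in DMSO, 40 to 74 with AU-15330, 5 to 16 with cisplatin and 44 to 67 with both drugs. Ddx4, a germ cell helicase, was at 1 to 7, 11 to 29, 9 to 26 and 24 to 37 counts in the same order. Sycp3, a protein of meiotic chromosomes, was at 3 to 11, 0 to 6, 7 to 29 and 1 to 6 counts. Each of these 3 passed the filter on low counts through the groups where it is highest, so their changes are given as counts only and nothing is read from them about the list. Tex19.1, a germ-cell gene, was at 8 to 19, 7 to 32, 17 to 33 and 11 to 29 counts in the same order and was called in no comparison.

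Over the 24 libraries, the genes whose log2 CPM was most like Uhrf1 were Dsn1 (Pearson r = 0.991), Dtl (0.99) and Gins2 (0.984), and those most like Dnmt1 were Pole (0.99), Exo1 (0.989) and Ddias (0.989). Daxx was most like Ifit2 (0.977), Oas1g (0.976) and Ifit1 (0.974). The nearest to Dnmt3a were Inppl1 (0.958), Nol4l (0.955) and Bach1 (0.954), and the nearest to Morc3 were Afdn (0.947), Arhgap17 (0.944) and Neo1 (0.939). For Atrx these were Frs2 (0.932), Ubr1 (0.912) and Bicd1 (0.906), for Trim28 Adrm1 (0.928), Psmd4 (0.925) and Rab35 (0.917), for Setdb1 Mlxip (0.923), Snx27 (0.903) and Map4k2 (0.898), and for Mphosph8 Chmp4b (0.923), Utp3 (0.903) and Anxa5 (0.888). Dnmt3b, measured by the fewest counts, had the lowest values, with Mtmr11 (0.765), Hdac4 (0.744) and Gabbr1 (0.739). All these libraries share the 4 treatments, and the coefficients are a description.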

How the data were processed

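RNA of 24 libraries was measured by poly(A), directional, single-end sequencing. The deposited values are raw read counts per gene symbol in 2 lanes a library, which the authors made from reads aligned with STAR 2.7.1a to mm10, per the submitters' processing notes, which also name DESeq2 1.36.0. The counting tool, its strand setting and the annotation are not given in the sources used here. All 48 columns matched a label, and lanes were summed.

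The quasi-likelihood test of edgeR 4.0.16 (R 4.3.3) was fitted to all 24 libraries (filterByExpr, TMM, group means, 20 residual degrees of freedom, Benjamini-Hochberg adjustment over 12941 genes, threshold 0.05), after a check on simulated data. CPM used TMM-adjusted totals and log2 CPM a prior count of 2. Positions and exon lengths came from GENCODE on GRCm38 and promoters from RefSeq.

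The genes and lists were chosen with earlier results of these data known, so their counts are descriptions. Named from each list were the 3 largest called increases and decreases with each drug and for both drugs against cisplatin, and Irf7 and Isg15, and 1 further gene of this rule is not reported here. Genes named for their levels beside these, the promoter motifs and the comparison with S phase genes were chosen after values were seen. Alternatives were another scaling, total counts, DESeq2 1.42.0, no filter, a replicate block, leaving out replicate 1, and a required fold of 1.5. Retroelement transcripts and proteins were not analysed here.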

Additional observations from a re-analysis of the deposited data

Results flagged for a closer look

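In 48 sets of 6 libraries (12 genes in 4 groups), 4 had a library far from the other 5, where about 2.4 would be flagged by chance. The gap to the nearest library, as a share of the range of the 6, was 0.646 for Dnmt1 in DMSO, where replicate 2 was at 100.01 CPM and the others at 77.1 to 85.2 CPM. It was 0.693 for Dnmt3b with AU-15330, where replicate 2 was at 4.05 CPM and the others at 2.00 to 2.63 CPM. For Trim28 with both drugs it was 0.739, with replicate 1 at 441 CPM and the others at 335 to 363 CPM. For Irf7 in DMSO it was 0.774, with replicate 1 at 11.1 CPM against 7.59 to 8.38 CPM.

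The effect of AU-15330 differed with and without cisplatin, by the interaction term of the edgeR fit. On the log2 scale the difference was -0.51 for Dnmt1 (adjusted p = 0.000809), -1.29 for Uhrf1 (adjusted p = 2.69e-06), 0.65 for Dnmt3b (adjusted p = 0.0477) and -1.10 for Daxx (adjusted p = 8.86e-10). It was -5.14 for Irf7 (adjusted p = 1.36e-19) and -6.47 for Isg15 (adjusted p = 4.58e-17).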

How the results depend on the processing

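Where a change above 1.5-fold was required, the silencing genes called were 3 of 10 with AU-15330, with cisplatin and with both drugs against DMSO, 1 for both drugs against cisplatin and against AU-15330, and 2 for the interaction, and the interferon genes called were 15 for both drugs against cisplatin and 6 against AU-15330. Those 15 were all lower, and the higher calls went from 6 to 0. The 6 against AU-15330 were all higher, and the lower calls went from 13 to 0. With higher and lower calls summed, the other counts of both lists stayed within 1.5 times under each alternative. Counted in 1 direction, the silencing genes lower with cisplatin went from 1 to 0 on total counts, those lower with both drugs went without replicate 1 from 3 to 5 against DMSO (Setdb1 and Mphosph8 added) and from 1 to 2 against AU-15330 (Dnmt3a added), and those with a lower interaction went from 3 to 5 with the replicate block (Dnmt3a and Morc3 added). Without the 4 libraries of replicate 1, no silencing gene lost its call and 6 calls were gained. Total counts without TMM put the median of all genes at 0.126 with AU-15330, 0.139 with both drugs against DMSO and 0.104 with both against cisplatin, and moved the silencing genes by at most 0.14. There, values that had not passed the test changed sign to 0.02, 0.03 and 0.01 for Setdb1 (AU-15330 against DMSO, both against DMSO, both against AU-15330), 0.12 for Trim28 and 0.04 for Atrx (both against DMSO), and -0.03 for Mphosph8 (interaction, which was -0.04 without replicate 1). Atrx for both drugs against cisplatin was -0.02 with the DESeq2 size factors, without the filter and with DESeq2, and Morc3 for both against AU-15330 was -0.01 without the filter. The Dnmt3b interaction lost its call with the DESeq2 size factors (adjusted p = 0.0559), on total counts (0.0783) and without the filter (0.0725).

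Same-numbered replicates correlated above 0.1 in 23 of 36 pairs (mean r = 0.145), against a mean of -0.0269 for other pairs. Of 72 cases of a library set against another group, 32 correlated best with their own number, where about 12 would by chance. Same-numbered libraries thus shared some variation, although not every pair passed 0.1. The methods of the study name no pairing, and the main fit left the numbers out. A fit with the replicate block called 9, 5, 7, 7, 5 and 6 silencing genes (with AU-15330, cisplatin and both against DMSO, both against cisplatin, both against AU-15330, interaction), against 8, 5, 6, 7, 5 and 4 without it.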
